A study of Sus scrofa with 4 samples.

Results

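The nuclear genes that encode subunits of respiratory complexes II, III and IV, of the ATP synthase (complex V) and of cytochrome c were examined in porcine parthenogenetic 4-cell embryos. Rows of the deposited table were taken by gene name, off the mitochondrial chromosome: SDHA to SDHD, CYC1, CYCS and any name that begins with UQCR, ATP5 or COX4 to COX8. The rule found 34 rows of 35248 in the table: 3 of complex II, 6 of complex III with cytochrome c, 14 of complex IV and 11 of complex V. The name rule also takes in ATP5IF1, an inhibitor of the ATP synthase, ATP5S, a coupling factor that the table describes as a relative of a complex assembly protein, and COX7A2L, a factor of supercomplex assembly, which are not structural subunits of their complex in the strict sense.

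The series holds 4 RNA-seq libraries. All embryos were parthenotes, made by electric activation of oocytes in the absence of sperm, kept for a short time in cytochalasin B, which retains the second polar body, and cultured for 48 h in PZM-3 medium. In 2 libraries the medium held 50 µM Bobcat339, a compound used to block TET dioxygenases, and in the other two the solvent DMSO (control). How many embryos went into a library, and whether replicates came from separate cultures, was not stated in the labels. The p-values therefore reflect the spread among these libraries alone, and that spread may be technical.

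These complexes stand in the inner mitochondrial membrane. Complex II passes electrons from succinate to ubiquinone, complex III passes them on to cytochrome c, and complex IV hands them to oxygen. Complexes III and IV pump protons, and complex V uses the proton gradient to make ATP. Complex II is encoded in the nucleus alone, while complexes III, IV and V join nuclear subunits to a few subunits made from mitochondrial DNA. Several subunits of complex IV exist as isoforms from different genes, one used in most tissues and another in heart and skeletal muscle or in testis. Early mammalian embryos carry mitochondria inherited from the oocyte and draw on oxidative phosphorylation during the first cleavages.

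Library totals lay between 13568525 and 14681221 counts, so 3 counts, the level that a count of 0 allows, corresponded to 0.204 to 0.221 CPM (counts scaled to library size). The subunit rows took 0.211% (Bobcat339 1), 0.193% (Bobcat339 2), 0.265% (control 1) and 0.183% (control 2) of all counts, and mitochondrially encoded rows took 4.02% to 6.36%. Oocyte and embryo markers were abundant in each library (summed 10532 to 12020 CPM over 9 genes). Cumulus and granulosa cell markers summed to 114 to 152 CPM over 11 rows, most of it VCAN and VIM. Of the defining granulosa genes, AMH had no counts and FSHR had a single count over all libraries. FOXL2 had 1 and 6 counts in the treated libraries and 0 in the controls, and AMHR2 had 16 to 24 counts in each. CYP19A1 had 3 and 12 counts in the treated libraries and 12 and 16 in the controls. GREM1, a cumulus gene, was at 21.4 and 18.6 CPM with Bobcat339 and 8.46 and 8.23 CPM in the controls. It did not pass (log2 fold change 1.26, SE 0.34; edgeR adjusted p = 0.773), and the log2 fold change stayed between 1.15 and 1.40 with each library left out. TNFAIP6, another cumulus gene, had 7 and 4 counts with Bobcat339 and 24 and 22 in the controls (log2 fold change −2.07, SE 0.71). Blood and immune cell markers summed to 11.2 to 16.0 CPM over 5 rows. The part of such cells in the results below was not tested, and in bulk libraries a change in cell number and a change in RNA per cell cannot be told apart.

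Of the 34 rows, 32 had counts and 31 passed the filter on low counts. The most abundant per base of transcript was COX7A2, the widely used isoform of a small complex IV subunit, at a mean of 295 FPKM (fragments scaled to transcript length and library size, as deposited) over the 4 libraries. Cytochrome c (CYCS, 154 FPKM) came next. The α subunit of the ATP synthase (ATP5F1A, 90.7 FPKM), COX4I1 (90.4 FPKM) and the iron-sulfur protein of complex II (SDHB, 73.6 FPKM) followed. ATP5F1A and COX4I1 differed by less than the spread over the libraries of either. At the lower end stood COX7A1 (1.31 FPKM), ATP5S (0.642 FPKM) and COX4I2 (0.163 FPKM). The deposited FPKM of 11 of the 32 rows with counts rest on a shorter length than the one the table lists, such as 3121 in place of 9305 bases for ATP5F1A, so that levels of different genes depend on gene models that are not the same for all rows.

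**Figure D1:**
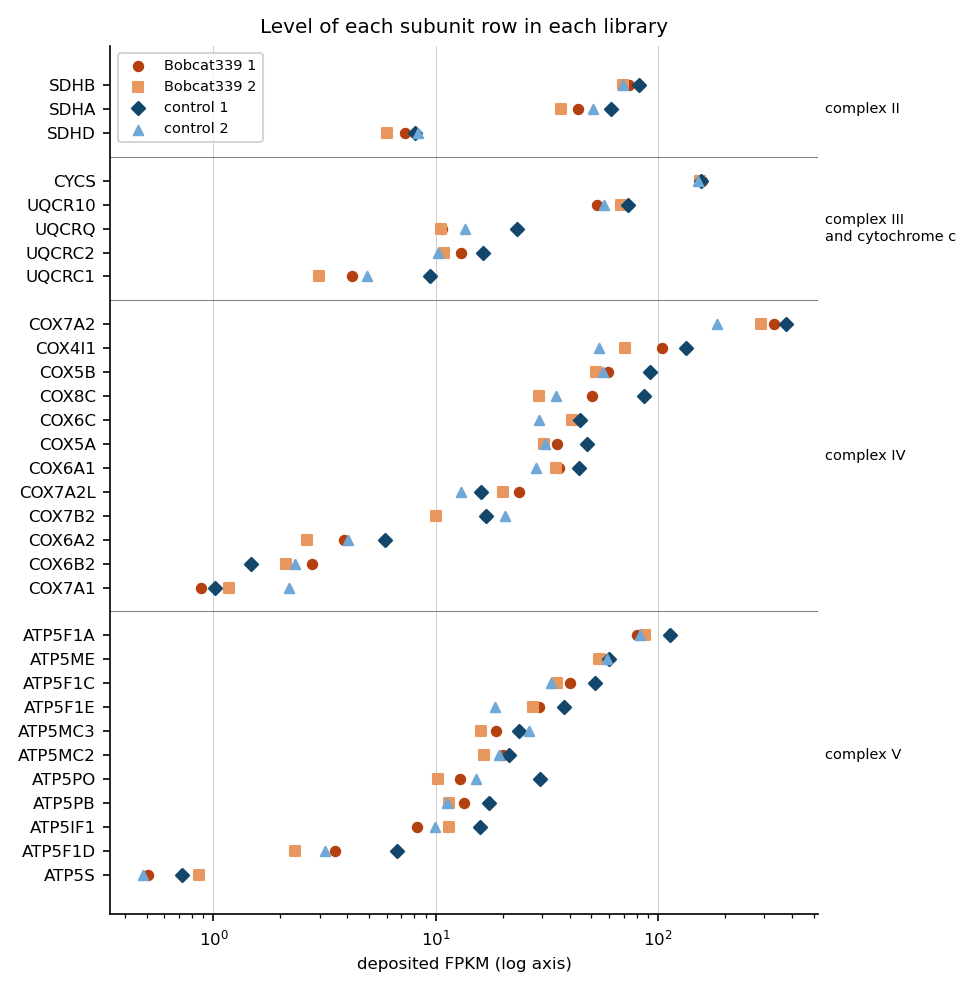
Deposited FPKM (log axis) of each nuclear subunit row in each of the 4 libraries, by complex; CYC1, COX8H and COX4I2, which have a value of 0 in at least 1 library, are left out. COX7A2 lies highest, at 185 to 376 FPKM, and the dark diamond of control 1 is the rightmost point in most rows.

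No subunit passed the test between Bobcat339 and control embryos. Most of the 31 tested rows stood lower in Bobcat339 embryos, 26 below 0 and 5 above, with a median log2 fold change of −0.23, against −0.02 over all 18481 tested rows, of which 52.9% were below 0. The median was −0.32 in complex II (3 rows), −0.18 in complex III with cytochrome c (5 rows), −0.21 in complex IV (12 rows) and −0.23 in complex V (11 rows). With edgeR's quasi-likelihood test 0 of 31 passed a Benjamini-Hochberg adjusted p of 0.05 over all rows (background 0%), each at an adjusted p of 0.999. At an unadjusted p under 0.05, 3 rows were lower, UQCRC1, UQCRQ and ATP5PO, where 2.64% of all tested rows were, and 0 were higher (background 1.36%). DESeq2 and limma-voom also called 0 of the subunit rows, with 3 and 2 of them at an unadjusted p under 0.05. Over the whole table, 558 rows with DESeq2 and 646 with limma-voom were under that level. Both Bobcat339 libraries lay below both controls in 8 rows (25.8%, against 16.0% of all tested rows) and above both in 1 row (3.23%, against 13.3%).

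**Figure D2:**
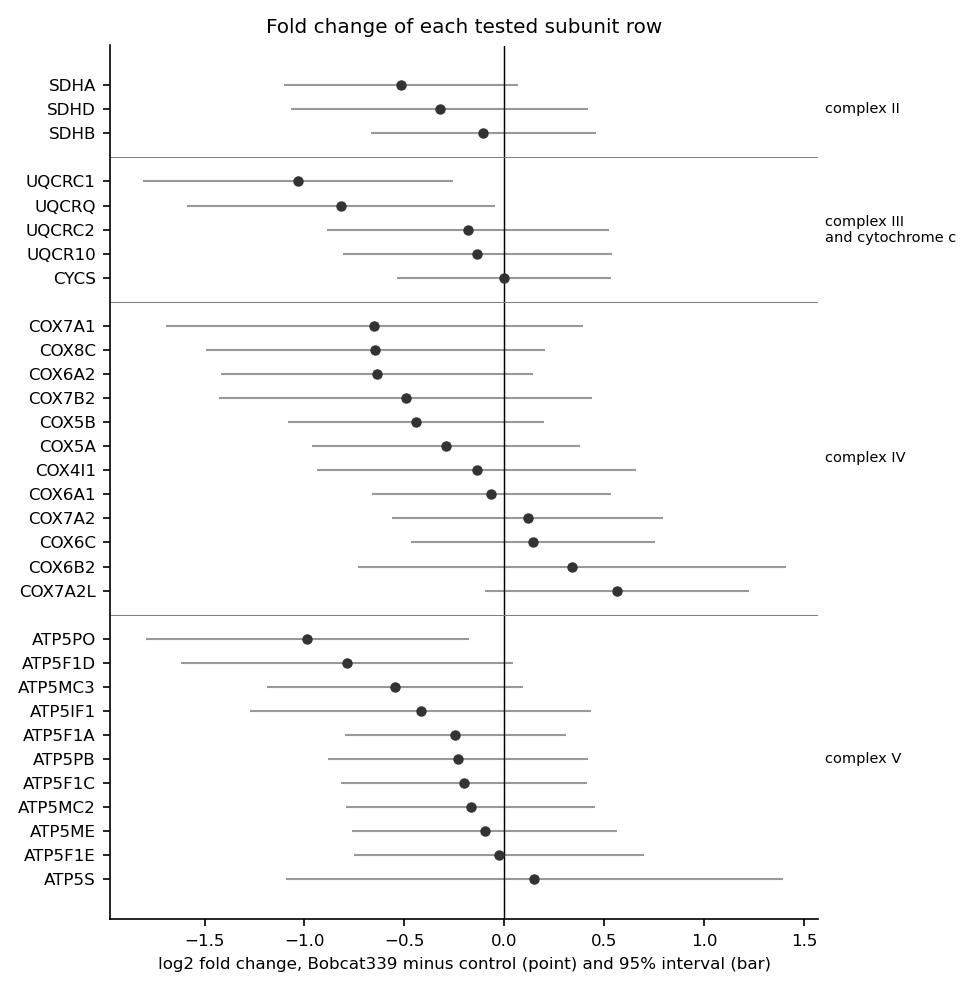
Log2 fold change (point) with its 95% interval (bar) for each of the 31 tested rows, by complex, from edgeR. Most points lie left of 0, from −1.03 for UQCRC1 to 0.56 for COX7A2L, and only the intervals of UQCRC1, UQCRQ and ATP5PO leave out 0.

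In these rows the median difference between the 2 control libraries was larger than that between the groups. Control 1 was above control 2 in 27 of 31 rows, and the median difference of control 1 minus control 2 was 0.66 on the log2 scale, against −0.01 over all tested rows. It was 0.30 in complex II, 0.72 in complex III with cytochrome c, 0.66 in complex IV and 0.68 in complex V. Control 1 exceeded control 2 by more than 2-fold in 6 rows (background 11.0%) and fell short of it by more than 2-fold in 1 row, COX7A1 (background 7.14%). Of the 31 rows, 25 (80.6%) had their highest value in control 1, where 32.7% of all tested rows did. The Bobcat339 libraries lay closer together, with a median difference of 0.22 in favour of library 1 and no row more than 2-fold apart.

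**Figure D3:**
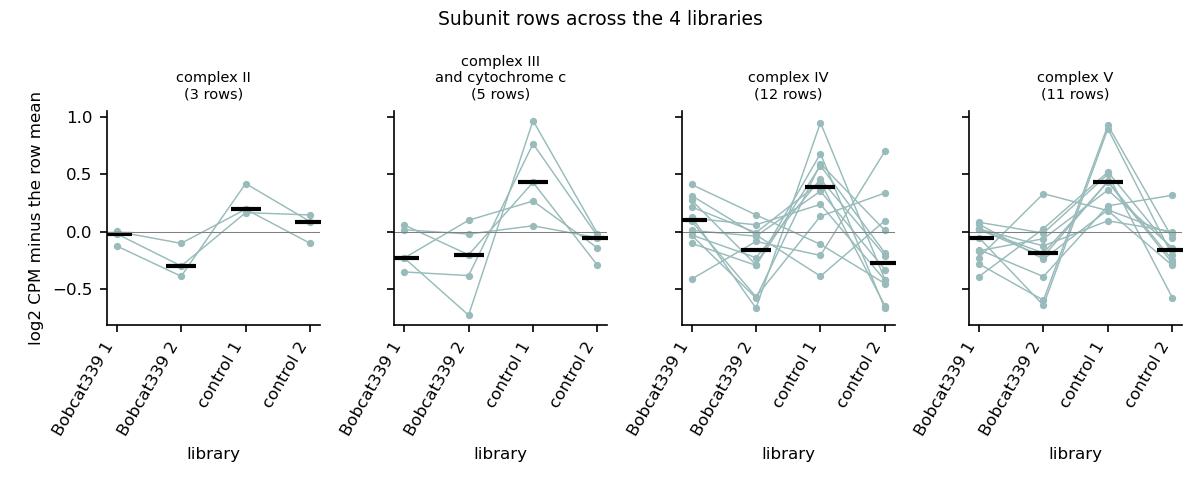
Log2 CPM minus the row's mean over the 4 libraries (vertical axis) for each tested row (line) and the median of each complex (black bar), by library. The median of control 1 is the highest in each panel, at 0.20, 0.43, 0.39 and 0.44, and the other 3 libraries lie between −0.30 and 0.11.

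Without control 1 the median over the 31 rows was 0.05, with 14 rows below 0, and without control 2 it was −0.45, with 29 below 0. The medians without Bobcat339 1 and without Bobcat339 2 were −0.34 and −0.14. When control 2 was left out, and control 1 therefore stood alone for its group with the spread taken from the Bobcat339 pair, 5 rows passed as lower: UQCRC1 (edgeR adjusted p = 0.00241), ATP5PO (0.00815), COX8C (0.0146), ATP5F1D (0.019) and UQCRQ (0.0284), where 1.73% of all rows tested did. As higher, 0 passed (background 0.740%). When control 1 was left out, COX7A2 alone of these rows passed, as higher (log2 fold change 0.76, edgeR adjusted p = 0.0147; background 2.03%), and 0 passed as lower (background 0.887%). The calls thus differed with the control library that was kept.

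**Figure D4:**
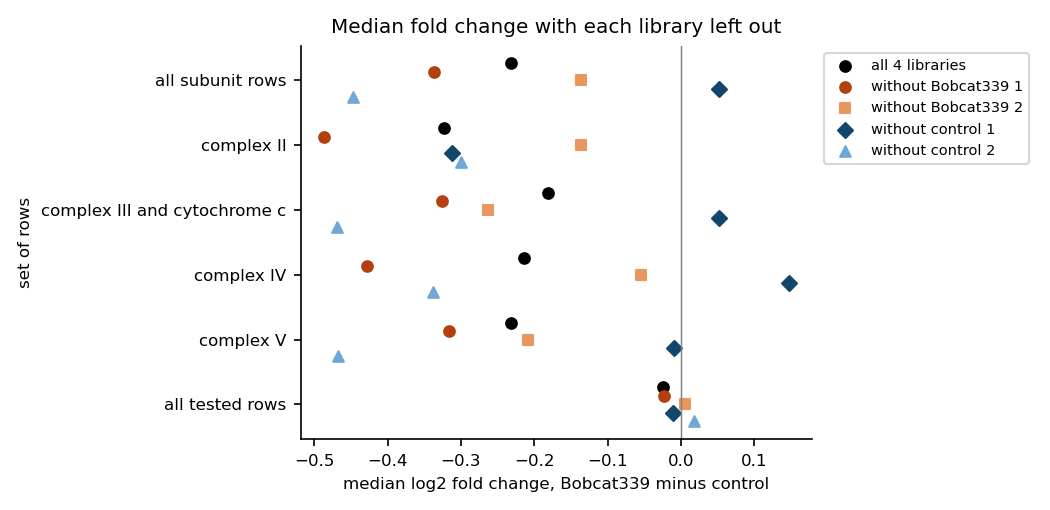
Median log2 fold change of the subunit rows, of each complex and of all tested rows, with all 4 libraries and with each library left out in turn. The medians without control 1 lie at or above −0.01 except in complex II (−0.31), and those of all tested rows stay between −0.02 and 0.02.

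Complex II was the set whose controls lay closest together. SDHA, the flavoprotein that oxidises succinate (ENSSSCG00000020686, Sscrofa11.1 chromosome 16: 79838154 to 79906500, minus strand), had 112 and 93.1 CPM under treatment, compared with 163 and 130 CPM in controls 1 and 2. The groups did not overlap, and the log2 fold change was −0.52 (SE 0.28; 95% interval −1.10 to 0.07; edgeR adjusted p = 0.999). SDHD, a membrane anchor that holds the haem and the quinone site together with SDHC, had 9.40 and 7.65 CPM against 10.7 and 10.6 CPM. Its controls were nearly equal and both lay above the Bobcat339 libraries (log2 fold change −0.32, SE 0.35). SDHB, which carries electrons through its iron-sulfur clusters, was at 157 and 146 CPM against 180 and 147 CPM, so Bobcat339 2 and control 2 were alike (−0.10, SE 0.27). The median of complex II was −0.31 without control 1 and −0.30 without control 2, but −0.49 without Bobcat339 1 and −0.14 without Bobcat339 2.

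Of complex III, the row with the smallest p of all the subunits was UQCRC1, one of the core proteins on the matrix side (ENSSSCG00000011356, chromosome 13: 31294951 to 31308671, minus strand). It had 21.9 and 15.4 CPM under treatment, compared with 50.9 and 25.5 CPM in controls 1 and 2. Both Bobcat339 libraries were the lower, but control 1 was also far above control 2. The log2 fold change was −1.03 (SE 0.37; 95% interval −1.81 to −0.26; edgeR adjusted p = 0.999), −0.45 without control 1 and −1.41 without control 2. UQCRC2, the other core protein, had 32.3 and 26.9 CPM against 41.9 and 25.2 CPM, and its groups overlapped (−0.18, SE 0.33; 0.23 without control 1).

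UQCRQ, a small subunit near the quinone site, had 9.47 and 9.25 CPM against 21.1 and 11.9 CPM. The Bobcat339 libraries were nearly equal and both lay below the controls (log2 fold change −0.82, SE 0.37; −0.34 without control 1). UQCRQ overlaps GDF9 on the opposite strand over 573 bases, 31.1% of its span, and GDF9, an oocyte growth factor, is one of the abundant transcripts here with 58698 counts. Without strand information, reads that lie within this overlap cannot be assigned to either gene. UQCR10, another small subunit, had 27.3 and 34.5 CPM against 38.8 and 29.1 CPM (−0.14, SE 0.32). Cytochrome c itself, the mobile carrier between complexes III and IV that also triggers the apoptosome when it leaves the mitochondrion, differed little between the libraries: CYCS had 222 and 216 CPM against 227 and 211 CPM (log2 fold change −0.00, SE 0.25; 95% interval −0.54 to 0.53).

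CYC1, the haem protein of complex III that hands electrons to cytochrome c, had 0 counts in all 4 libraries. Its row (chromosome 4: 606516 to 608996, minus strand) lies over 99.5% of its span inside that of SHARPIN on the other strand, which had 238 counts. COX8H, the heart and muscle isoform of a complex IV subunit, had 0 counts too, and its whole span lies inside that of PSMD13, a proteasome subunit with 8822 counts. COX4I2, at 1 and 0 counts in the Bobcat339 libraries and 0 and 5 in the controls, lies wholly inside the span of BCL2L1, which had 69424 counts. Among named rows of the table with at least 99% of their span inside another row, 268 of 1099 (24.4%) had 0 counts in every library, against 434 of 9382 (4.63%) that overlap no other row. The part of the overlap in these 3 levels was not tested, and the 0 of CYC1 cannot be read as absence of the transcript.

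In complex IV the rows fell on both sides of 0, with 8 below and 4 above. COX4I1, the regulatory subunit that binds ATP, had 79.2 and 53.5 CPM under treatment, compared with 105 and 40.9 CPM in the controls, which thus enclosed both treated libraries (log2 fold change −0.14, SE 0.38; 0.70 without control 1 and −0.63 without control 2), and 18.1% of its span overlaps EMC8. COX7A2 had 181 and 155 CPM against 211 and 99.7 CPM, again between the controls (0.12, SE 0.32). COX5B had 93.7 and 82.0 CPM against 150 and 88.4 CPM (−0.44, SE 0.30; −0.0084 without control 1 and −0.74 without control 2), and COX5A 50.1 and 43.6 CPM against 70.5 and 44.2 CPM (−0.29, SE 0.32). In both, control 1 stood alone and the other 3 libraries were close.

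COX6C, a small subunit of the membrane part, had 135 and 130 CPM under treatment, compared with 147 and 92.9 CPM (log2 fold change 0.14, SE 0.29). COX6A1 had 174 and 168 CPM against 221 and 138 CPM (−0.07, SE 0.28). COX7A2L, which helps complexes III and IV join into supercomplexes (ENSSSCG00000008466, chromosome 3: 97951110 to 97984009, plus strand), was the only one of the 31 rows with both Bobcat339 libraries above both controls. It had 46.9 and 39.0 CPM against 32.5 and 25.6 CPM. Its log2 fold change was 0.56 (SE 0.31; 95% interval −0.10 to 1.23; edgeR adjusted p = 0.999) and stayed between 0.42 and 0.75 with each library left out. COX7A2, the subunit it resembles, was also above 0 with all libraries, but not with each library left out. Without control 1 the log2 fold changes were 0.75 for COX7A2L and 0.76 for COX7A2. Without control 2 they were 0.43 and −0.29, and without Bobcat339 1 they were 0.42 and −0.0064.

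The levels of the isoforms known from heart, muscle or testis differed from family to family. In the COX6A pair the muscle isoform COX6A2 made up 7.01% to 12.4% of the summed FPKM and COX6A1 the rest. COX6A2 had 10.6 and 7.07 CPM against 16.6 and 10.9 CPM, and the groups did not overlap by a narrow margin (log2 fold change −0.64, SE 0.37). COX7A1, the heart and muscle form, took 0.246% to 1.09% of the COX7A family, COX7A2L 4.07% to 6.64% and COX7A2 92.4% to 95.7%. COX7A1 had 2.04 and 2.70 CPM against 2.44 and 5.01 CPM, control 2 being the high one (−0.65, SE 0.49; −0.01 without control 2), and 39.6% of its span overlaps CAPNS1. COX4I1 held at least 99.1% of the counts of the COX4I pair.

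The isoforms described from testis were COX6B2, COX7B2 and COX8C. COX8C was the most abundant of them, with a mean of 50.2 FPKM, close to SDHA (48.0 FPKM), and stood at 47.7 and 27.2 CPM under treatment, compared with 84.7 and 32.5 CPM in the controls. Control 1 was the high library and the groups overlapped (log2 fold change −0.64, SE 0.40; 0.21 without control 1). Beside COX8A, the widespread isoform, whose row has no name in the table and was matched by its identifier (791 FPKM), COX8C made up 3.60% to 9.19% of the family's FPKM. COX6B2 had 3.00 and 2.26 CPM against 1.65 and 2.51 CPM (0.34, SE 0.51) and 4.76% to 11.9% of the FPKM of its pair with COX6B.

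COX7B2 had 4.09 and 2.40 CPM against 4.23 and 4.94 CPM, with both Bobcat339 libraries the lower (log2 fold change −0.49, SE 0.44; −0.93 without Bobcat339 1 and −0.12 without Bobcat339 2). It took 36.5% to 51.2% of the FPKM of its pair with COX7B but 7.86% to 13.5% of their counts, since its row is 243 bases long and that of COX7B 1638. Its share per length therefore rests on the gene model. Reads of related genes of a family may be shared between their rows, which was not tested.

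**Figure D5:**
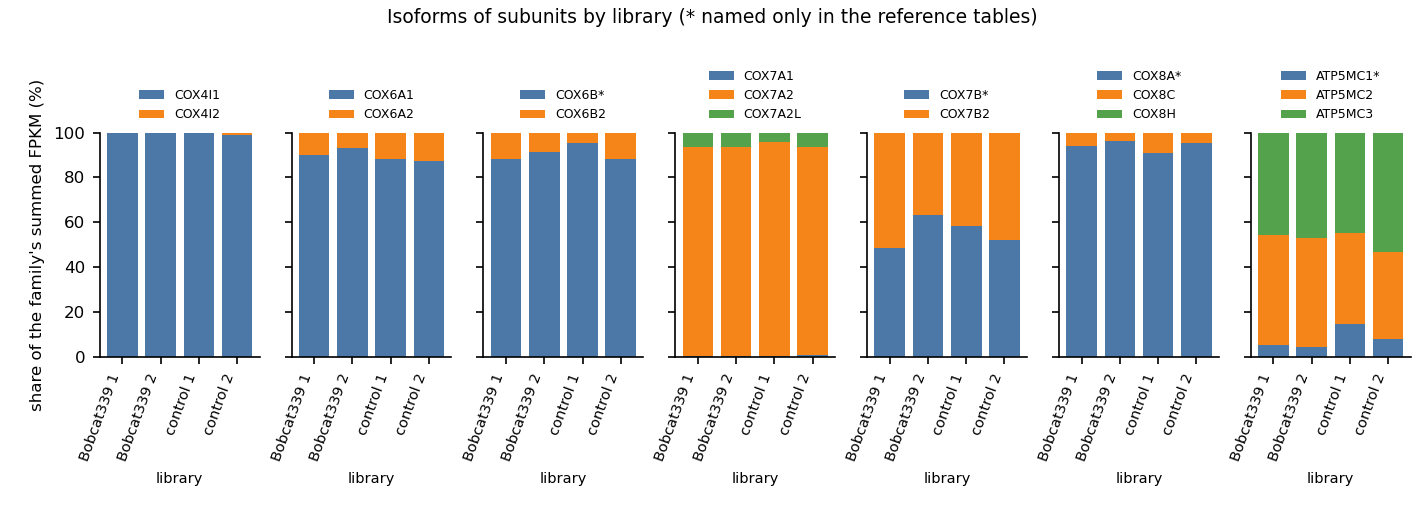
Share (%) of each isoform in the summed deposited FPKM of its family, by library; an asterisk marks rows with a name only in the reference tables. COX4I1, COX6A1, COX7A2 and COX8A hold at least 87.6% in each library, while COX7B2 takes 36.5% to 51.2% and ATP5MC2 and ATP5MC3 are near each other.

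In complex V, 10 of 11 rows were below 0, but 6 of 11 without control 1, when the median was −0.01. Of the catalytic F1 head, ATP5F1A (α subunit) had 251 and 270 CPM under treatment, compared with 362 and 255 CPM in the controls (log2 fold change −0.25, SE 0.26), and ATP5F1C, the γ subunit of the rotating stalk, 145 and 125 CPM against 193 and 118 CPM (−0.20, SE 0.29). ATP5F1D, the δ subunit of the same stalk, had 15.6 and 10.199 CPM against 30.6 and 13.96 CPM (−0.79, SE 0.39; −0.11 without control 1). ATP5F1E, the ε subunit, had 59.7 and 55.9 CPM against 80.0 and 37.7 CPM (−0.03, SE 0.34). In all 4 the treated libraries overlapped the controls, and control 1 was the highest library.

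The peripheral stalk keeps the catalytic head from turning. Its subunit ATP5PO, also called OSCP (ENSSSCG00000012042, chromosome 13: 197509331 to 197519588, minus strand), had 147 and 109 counts under treatment, compared with 332 and 165 in the controls, or 10.01 and 7.94 CPM against 23.8 and 11.8 CPM. Both treated libraries were the lower. The log2 fold change was −0.99 (SE 0.38; 95% interval −1.79 to −0.18; edgeR adjusted p = 0.999), −0.39 without control 1 and −1.37 without control 2. ATP5PB, the b subunit of the same stalk, had 73.98 and 62.7 CPM against 99.2 and 61.4 CPM, and the groups overlapped (−0.23, SE 0.31).

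The c subunits form the membrane ring that turns with the passage of protons, and several genes encode the same mature c protein with different import signals. ATP5MC2 and ATP5MC3 held 38.8% to 49.3% and 44.8% to 53.1% of the FPKM of the family, and their order differed between libraries. ATP5MC3 had 37.5 and 31.8 CPM against 49.1 and 52.3 CPM, a row in which control 2 was the higher control (log2 fold change −0.55, SE 0.30; −0.59 without control 1 and −0.47 without control 2), and 30.1% of its span overlaps ATF2 on the same strand. ATP5MC2 had 65.5 and 53.0 CPM against 71.5 and 61.7 CPM (−0.17, SE 0.29). Of the other rows, ATP5ME, a small membrane subunit tied to dimers of the enzyme, had 25.5 and 23.0 CPM against 26.9 and 25.1 CPM (−0.10, SE 0.31). The inhibitor ATP5IF1, which stops the enzyme from running in reverse, had 4.56 and 6.26 CPM against 9.03 and 5.44 CPM (−0.42, SE 0.40; −0.0091 without control 1 and −0.71 without control 2), and ATP5S 1.23 and 2.04 CPM against 1.79 and 1.15 CPM (0.15, SE 0.59).

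The FPKM of the named subunit rows were also summed per complex, where the abundant rows weigh most. These sums are partial, since rows without a name in the table were left out. The most abundant of those were COX8A of complex IV and ATP5B of complex V. COX8A had 784 and 780 FPKM with Bobcat339 and 857 and 742 in the controls. ATP5B had 108 and 90.0 FPKM against 142 and 72.4. For complex IV the sums of named rows were 707 and 583 in the Bobcat339 libraries and 865 and 461 in the controls. For complex V they were 286 and 273 against 377 and 278, for complex III with cytochrome c 238 and 247 against 278 and 236, and for complex II 124 and 112 against 151 and 128. In these partial sums both treated libraries lay below both controls in complex II, and between the controls in complexes III and IV. In complex V the partial sum of Bobcat339 1 was above that of control 2.

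The mitochondrially encoded partners of these subunits had another pattern across the controls. All 6 (CYTB of complex III, COX1, COX2 and COX3 of complex IV, ATP6 and ATP8 of complex V) had both Bobcat339 libraries below both controls, as 16.0% of all tested rows did, and 5 of them were highest in control 2. CYTB had 2840 and 2493 CPM under treatment, compared with 3835 and 4382 CPM (log2 fold change −0.62, SE 0.21; edgeR adjusted p = 0.999), and COX1, the catalytic subunit of complex IV, 14638 and 11814 CPM against 17322 and 18932 CPM (−0.45, SE 0.19). ATP8 had only 67 to 90 counts per library and differed little, at 6.13 and 4.88 CPM against 6.31 and 6.23 CPM (−0.19, SE 0.38). The median control 1 minus control 2 was −0.14 (log2) for the 6, against 0.66 for the nuclear rows. Their median log2 fold change was −0.42 with all libraries, −0.49 without control 1 and −0.32 without control 2. As lower, 5 of the 6 passed with edgeR without control 1 (0.887% of all rows tested then) and 1 without control 2 (1.73%). The 6 genes lie on the same strand of the mitochondrial genome and are not independent of each other. Mitochondrially encoded rows together took 4.93% and 4.02% of counts in the Bobcat339 libraries and 5.59% and 6.36% in the controls. The difference between nuclear and mitochondrially encoded rows was not tested.

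None of the assembly factors passed with all libraries included. The complex IV factors had 13 of 15 tested rows below 0 and a median log2 fold change of −0.16, with SCO1 (−0.18) and LRPPRC (0.09), which stabilises mitochondrial mRNAs, as the most abundant by CPM. Of complex V, all 5 tested rows including the inhibitor were below 0 (median −0.58), ATPAF2 at −0.26 and TMEM70 at −0.65. TMEM70 was at −0.91 without control 2 and −0.27 without control 1. Complex III factors had 4 of 6 below 0 (median −0.24), from UQCC1 at −1.47 (SE 0.49) and BCS1L at −0.98 (SE 0.47), each with both treated libraries the lower, to UQCC3 at 0.11 and LYRM7 at 0.50, and complex II factors had 2 of 3 (median −0.02), with SDHAF1 at −0.20 and SDHAF2 at −0.02. HCCS, the lyase that attaches haem to cytochrome c, was at −0.26.

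The listed regulators of nuclear or of mitochondrial respiratory genes, TFAM and POLRMT among the latter, ranged widely in level. ESRRA had at most 1 count in a library, and PPARGC1A a mean of 2.49 CPM. The most abundant were PPRC1 (515 CPM, log2 fold change −0.05) and TFAM (284 CPM, 0.02). NRF1 had 119 and 124 CPM under treatment, compared with 160 and 126 CPM in the controls (−0.23), and GABPA 201 and 175 CPM against 207 and 144 CPM (0.09). Of 13 tested regulators 6 were below 0 and 7 above, none passed with edgeR, and 12 of the 13 were highest in control 1 (32.7% of all tested rows). CREB1 had both treated libraries above both controls (log2 fold change 0.73, SE 0.34) and was the 1 regulator that passed without control 1 (edgeR adjusted p = 0.0405), where 2.03% of all rows passed as higher.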

How the data were processed

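RNA from 4-cell embryos was sequenced in 4 Smart-seq2 libraries, grouped by their titles. The authors deposited raw read counts per row and FPKM, per the file headers. DESeq2 1.16.1, HTSeq, HISAT2 2.0.5 and Trimmomatic are listed, per the submitters' processing notes, with the build Sscrofa10.2 and no roles. The coordinates follow Sscrofa11.1 instead: 98.8% of 14155 symbols overlap that gene there. The strand setting was not stated in these sources. Columns of no sample used number 0.

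Counts were fitted over the whole table in R 4.3.3 by glmQLFit and glmQLFTest of edgeR 4.0.16 after TMM scaling and filterByExpr (minimum count 10), which left 18481 rows, with Benjamini-Hochberg adjustment at 0.05; the code was tested on simulated data. SE and 95% intervals come from the F statistic. Printed CPM are TMM-normalised. Library scores are medians of log2 CPM (pseudocount 0.5) minus the row mean. Differences between libraries of a pair are log2 ratios. Alternatives were DESeq2 1.42.0, limma-voom (limma 3.58.1), other scalings and filters, the replicate number as a block, removal of a loess length trend (span 0.5) and each library left out. Another 3 sets of rows were added after the data were seen. The number of reads limits precision; floors cover counting error only.

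Members and lists were chosen with earlier results of these data known. Named were rows that pass, the 3 most abundant and the 2 with the smallest p per direction and complex, all isoforms, and the 2 most abundant of each related list; further rows were named after their values were seen. A planned motif search in promoters was not run.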

Additional observations from a re-analysis of the deposited data

How the results depend on the processing

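The number of subunit rows called was 0 under both other scalings, both other filters, DESeq2, limma-voom and the replicate block, and 0 to 5 with a library left out. Over all rows it was 0 except with DESeq2 (5), with the replicate number as a block (44) and with a library left out (0 to 586). The numbers mark no stated pairing; Bobcat339 1 and control 1 deviated from their group means with a correlation of 0.16 over rows. With the block the median over the subunit rows was −0.20. With the length trend removed it was −0.19. It was −0.21 with the 14 rows named only in the reference tables, −0.21 over the 16 that no other row overlaps and −0.20 over 23 core subunits, all 3 chosen after seeing the data.

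With a library left out, the median ranged from −0.45 to 0.0516 over all subunit rows, from −0.49 to −0.14 in complex II, from −0.47 to 0.0516 in complex III with cytochrome c, from −0.43 to 0.15 in complex IV and from −0.47 to −0.0091 in complex V. Of 31 rows, 14 kept their sign under every alternative that tested them, 12 below 0 and 2 above (COX7A2L, COX6B2). Among the 14, COX6B2, COX7A1 and COX7B2 were not tested under the filter of 5 CPM in 2 libraries. The other 17 rows changed sign with a library left out. Their log2 fold changes then ranged from −0.21 to 0.0525 (SDHB), −0.0271 to 0.0641 (CYCS), −0.30 to 0.0867 (UQCR10), −0.47 to 0.23 (UQCRC2), −0.29 to 0.76 (COX7A2), −0.63 to 0.70 (COX4I1), −1.14 to 0.21 (COX8C), −0.12 to 0.51 (COX6C), −0.56 to 0.0865 (COX5A), −0.34 to 0.32 (COX6A1), −0.45 to 0.0277 (ATP5F1A), −0.18 to 0.0215 (ATP5ME), −0.48 to 0.20 (ATP5F1C), −0.44 to 0.62 (ATP5F1E), −0.34 to 0.0241 (ATP5MC2), −0.50 to 0.15 (ATP5PB) and −0.21 to 0.50 (ATP5S). CYCS was 0.0179 with DESeq2 size factors, 0.0232 without scaling, 0.0275 without a filter and 0.0226 with DESeq2. ATP5F1E was 0.00806 without scaling, 0.00781 without a filter, 0.000668 with DESeq2, 0.0737 with limma-voom and 0.0696 with the replicate block. The cause of these changes was not tested beyond the library or setting named.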

Other observations

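The table leaves 14 further rows of the same complexes without a name, which the identifier tables give as SDHC, UQCR11, UQCRFS1, UQCRB, COX8A, COX6B, COX7B, COX7C, ATP5B, ATP5PF, ATP5J2, ATP5MK, ATP5H and ATP5MC1. They were set beside the named rows after the data were seen. Of the 14, 13 were below 0 (median log2 fold change −0.20), 13 were highest in control 1 (32.7% of all tested rows), and 4 had both Bobcat339 libraries below both controls (16.0% of all tested rows). ATP5B, the catalytic β subunit of the ATP synthase, had 530 and 437 CPM under treatment, compared with 723 and 353 CPM in the controls (−0.15, SE 0.30), so that the controls enclosed the treated libraries. It was 0.45 without control 1 and −0.55 without control 2.

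The row with the smallest p among all 45 tested nuclear rows of these complexes was ATP5MC1, another gene of the c ring, singled out after its values were seen. It had 38 and 25 counts under treatment, compared with 134 and 67 in the controls, or 2.59 and 1.82 CPM against 9.60 and 4.80 CPM. Both treated libraries were the lower (log2 fold change −1.70, SE 0.46; edgeR adjusted p = 0.773). It was −1.12 without control 1 (edgeR adjusted p = 0.238) and −2.08 without control 2 (0.00183). With the replicate number as a block the edgeR adjusted p was 0.0541. ATP5MC1 took 5.25% and 4.50% of the FPKM of the c subunit family in the Bobcat339 libraries and 14.7% and 8.14% in the controls. No explanation of this value was tested.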
